A study of Caenorhabditis elegans with 2 samples.

Results

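The genes studied here are the small nucleolar RNA (snoRNA) genes of Caenorhabditis elegans, 346 of 46890 annotated nuclear genes, set against the DNA sites bound by the tagged protein D2030.7. Members were all genes with the biotype snoRNA in the Ensembl annotation of WBcel235, with or without a binding site, and were chosen by annotation and not by any measured value. Binding was mapped by chromatin immunoprecipitation and sequencing (ChIP-seq) with an anti-GFP antibody in whole worms of strain RW12302, genotype st12302[D2030.7::TY1::EGFP::3xFLAG] I, whose own D2030.7 gene carries a CRISPR insertion of a TY1, EGFP and 3xFLAG tag. The worms were young adults of 62.5 hours, synchronised by bleaching and starvation at the first larval stage, and chromatin was sonicated to a size range of 200 to 800 bp. The only group has 2 biological replicates, so all values come from the tagged strain and no comparison between conditions exists. Whole animals were used, so the cells in which a site was bound cannot be told apart.

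snoRNAs are short nucleolar RNAs that pair with other RNAs and guide their chemical modification. Box C/D snoRNAs work with the methyltransferase fibrillarin to add methyl groups to riboses, and box H/ACA snoRNAs work with the pseudouridine synthase dyskerin. Many snoRNAs are cut from introns of protein-coding host transcripts, and others are transcribed from promoters of their own. In nematodes some snoRNA genes have polymerase III promoters with the internal boxes A and B that tRNA genes also use, and others have promoters of the kind found at spliceosomal snRNA genes.

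The sequences below are shown because they hold the short elements that most of the bound snoRNA genes share, beside 1 unbound gene with the same element and 1 strongly bound gene with none. Each run holds the 90 bases before the annotated 5′ end and the first 20 bases of the gene, on the strand of the gene, read from the RefSeq genome of build WBcel235 (ce11). Capitals mark either an upstream element (AACNCG, any 5 bases, TGTC), box A (TGGC, any 2 bases, AGTGG) or box B (GTTCNANNC). The first 4 genes, which lie at chrII:15025874-15025983 (minus strand), chrIV:867114-867223 (minus), chrII:13521211-13521320 (plus) and chrV:8228950-8229059 (minus), were bound and hold the upstream element.
Y53F4B.47: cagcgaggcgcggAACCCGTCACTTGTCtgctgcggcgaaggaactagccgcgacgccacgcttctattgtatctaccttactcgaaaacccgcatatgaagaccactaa
Y55F3BR.9: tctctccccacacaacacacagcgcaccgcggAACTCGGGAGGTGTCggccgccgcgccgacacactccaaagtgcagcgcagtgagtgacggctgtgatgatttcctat
F54F11.6: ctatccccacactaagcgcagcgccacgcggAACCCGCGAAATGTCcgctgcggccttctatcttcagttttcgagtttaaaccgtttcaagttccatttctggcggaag
C16D9.11: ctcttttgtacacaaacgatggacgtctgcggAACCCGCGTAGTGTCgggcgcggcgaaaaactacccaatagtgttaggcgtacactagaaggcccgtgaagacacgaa
The next gene, at chrIV:14780749-14780858 (plus), holds the element and had no summit in the main list.
WBGene00220185: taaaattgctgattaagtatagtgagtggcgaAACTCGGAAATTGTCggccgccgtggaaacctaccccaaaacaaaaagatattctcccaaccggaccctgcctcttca
The gene at chrII:15166009-15166118 (minus) was bound and holds none of the 3 motifs as spelled.
Y53F4B.48: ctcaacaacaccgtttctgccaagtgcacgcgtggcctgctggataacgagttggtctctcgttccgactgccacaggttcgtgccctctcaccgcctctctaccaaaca
The last 2 genes, at chrV:19643168-19643277 (minus) and chrX:6867848-6867957 (plus), were bound and hold box B, in Y43F8C.22 with box A before it.
Y43F8C.22: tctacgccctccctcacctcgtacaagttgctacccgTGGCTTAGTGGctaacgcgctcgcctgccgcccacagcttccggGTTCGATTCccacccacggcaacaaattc
C53B7.8: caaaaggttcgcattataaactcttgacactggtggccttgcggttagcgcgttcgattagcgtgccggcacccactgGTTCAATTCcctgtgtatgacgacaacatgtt

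The files are lists of peaks, each with a summit (the base of highest signal) and a signal value given by the authors' peak caller. The main list pooled both replicates and held 2777 peaks, and a gene was called bound when a summit of that list lay within 200 bp of it. Signal values are the authors' own and rank peaks within 1 list only. The lists hold no read counts, so sequencing depth is unknown, and intervals below are exact (Clopper-Pearson) 95% binomial intervals over genes, which cover counting error only. The labels point to a control experiment, which was not used here. Sites that any anti-GFP ChIP-seq of worms would give therefore cannot be told apart from sites of D2030.7.

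Of the 346 snoRNA genes, 99 had a summit, a share of 28.6% (interval 23.9% to 33.7%). Over all annotated genes the share was 6.48%, and over protein-coding genes 8.81%. In the replicates' own lists 91 snoRNA genes had a summit in replicate 1 and 92 in replicate 2, a mean of 91.5 ± 0.707 (SD, n = 2). The background shares in those lists were 5.6% in replicate 1 and 4.75% in replicate 2. The snoRNA count therefore hardly differed between the replicates. Among other small RNA classes, the share was 73.7% of 612 tRNA genes, 49.6% of 129 snRNA genes and 3.83% of 261 microRNA genes. None of the 99 bound snoRNA genes had a summit that was also within 200 bp of a tRNA, snRNA or rRNA gene.

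**Figure D1:**
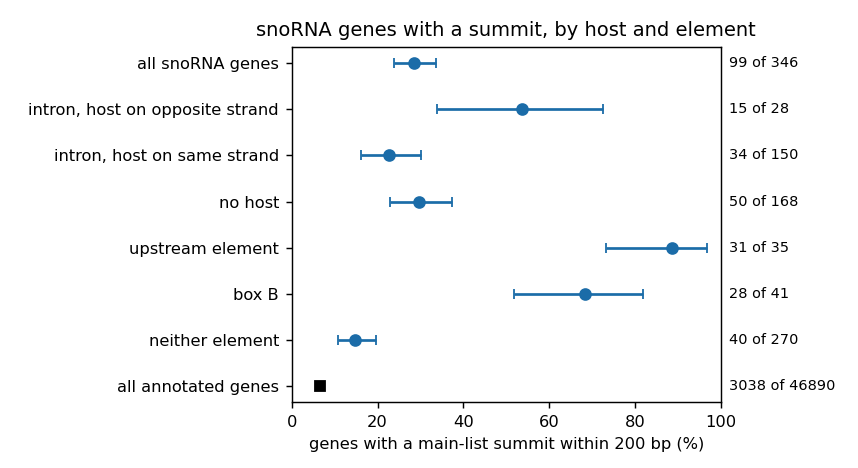
Percent of genes with a main-list summit within 200 bp, for snoRNA genes as a whole, by host and by promoter element, and for all annotated genes. Points are shares and bars exact 95% intervals, with counts at the right; genes with the upstream element stand highest at 31 of 35, and all annotated genes lowest at 3038 of 46890.

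The 99 genes accounted for 102 distinct summits, and these were among the stronger ones. The median signal was 218 at summits of snoRNA genes and 127 at the other summits of the list. Of the snoRNA summits, 82 of 102 were at or above the median of the whole list (130). They made up 4 of the strongest 10 summits of the main list and 14 of its strongest 100. Each list ranks these summits on its own scale. The median signal at snoRNA genes was 129 in replicate 1 and 99.3 in replicate 2. The authors' pooled ranked list, which holds peaks before the threshold, reached a signal of 2629, against 1268 in the main list. Stronger candidates were therefore absent from the main list, and ranks given here hold within that list only.

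The strongest site of the main list was at Y74C9A.6 (chromosome I, 3747 to 3909, minus strand). Its signal was 1268 in the pooled list, 729 in replicate 1 and 528 in replicate 2. F59C6.15 (chromosome I, 10516978 to 10517150, minus strand) followed with 1128 in the pooled list, 655 in replicate 1 and 476 in replicate 2. Both genes have no host, and both hold the upstream element. Y53F4B.47 (chromosome II, 15025814 to 15025893, minus strand), the first sequence shown, had 1016 in the pooled list, 610 in replicate 1 and 392 in replicate 2. Y55F3BR.9 (chromosome IV, 867056 to 867133, minus strand), which lies inside Y55F3BR.2 on the opposite strand, had 975 in the pooled list, 581 in replicate 1 and 394 in replicate 2. These 4 genes led the snoRNA genes in both replicate lists, well apart from the next.

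The following 8 genes lay between 551 and 629 in the pooled list. F25H2.15 had 629 (319 in replicate 1 and 298 in replicate 2), and F54F11.6, in an intron of the serpentine receptor gene sre-45, had 606 (343 in replicate 1 and 240 in replicate 2). Y53F4B.48 had 597, T26A8.6 had 586, Y23H5B.10 had 583, C16D9.11 had 573, K07C10.2 had 555 and Y48A6C.10 had 551. Among the 12 strongest genes, 8 hold the upstream element, and Y23H5B.10 holds box B. T26A8.6, Y53F4B.48 and K07C10.2 hold neither, and at K07C10.2 the summit lay 112 bp after the 5′ end, past the end of the annotated gene.

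For single genes in the thresholded lists, agreement between the replicates was close. Of the 99 genes, 80 had a summit in both replicate lists, 7 in replicate 1 only, 5 in replicate 2 only and 7 in neither, where only the pooled list called them. Another 10 of the 247 unbound genes had a summit in at least 1 replicate list. For the 81 genes present in both lists, Pearson's r of log2 signal was 0.92 and Spearman's rho 0.90. The points share the strain, the antibody and the peak caller, and genes are not independent replicates, so the correlation is a description. The main list was also thresholded on how alike the replicates rank a peak, so agreement among its 99 genes was favoured in advance. The correlation covers only genes that passed the threshold of both replicate lists.

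**Figure D2:**
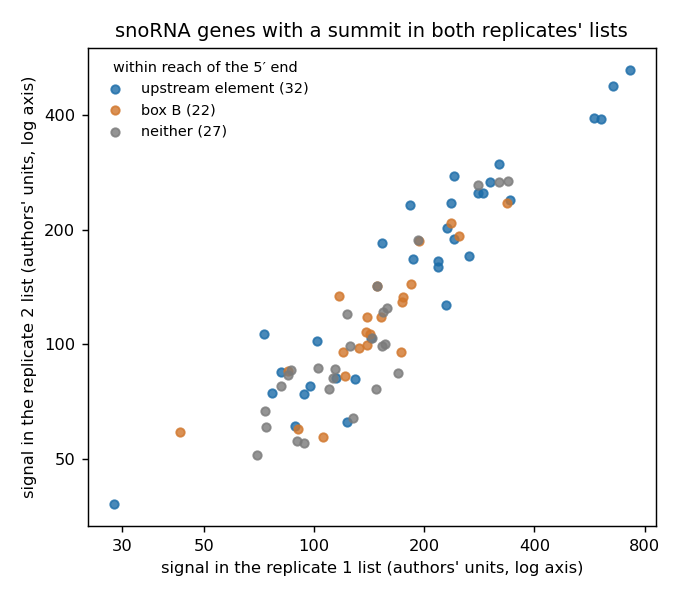
Signal of the strongest summit at each of the 81 snoRNA genes present in both replicate lists, replicate 2 against replicate 1, in the authors' units on log axes and coloured by promoter element. The genes rise along 1 diagonal, with 4 genes that hold the upstream element at the top right.

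Summits lay just before the genes. Relative to the annotated 5′ end the strongest summit had a median position of −29 bp (quartiles −48 and −12, range −194 to 267). It lay upstream at 81 of 99 genes (81.8%), inside at 14 and downstream at 4, and 64 genes had it in the 60 bases before the 5′ end. The median was −31 bp in the replicate 1 list and −26 bp in the replicate 2 list (mean −28.5 ± 3.54, SD, n = 2). Few genes lay near the edge of the 200 bp window. W06H8.17 at 176 bp, Y73B3A.30 at 193 bp and M7.15 at 194 bp from the nearest summit were the farthest inside, and C24A1.8 at 237 bp, F58D5.12 at 239 bp and F54E7.10 at 250 bp were the nearest outside.

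Under the main host rule, bound genes made up similar shares of the snoRNA genes inside and outside host introns. A gene was called hosted when it lay wholly inside an intron of a protein-coding transcript, and 178 of 346 were hosted, in 159 distinct host genes. Of the hosted genes, 49 (27.5%, interval 21.1% to 34.7%) were bound, against 50 of the 168 others (29.8%, 23.0% to 37.3%). In replicate 1 the counts were 44 hosted and 47 unhosted genes, and in replicate 2 they were 48 hosted and 44 unhosted genes. The intervals overlap widely in the pooled list. The similarity depended on the host rule. With only same-strand hosts counted, 34 hosted and 65 unhosted genes were bound, and the hosted share was 22.7%. With any overlap with a protein-coding gene counted as hosted, the counts were 54 and 45, and the unhosted share was 36.3%.

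The strand of the host went with a larger difference. Of the 28 genes inside an intron on the strand opposite to the host, 15 (53.6%, interval 33.9% to 72.5%) were bound, against 34 of the 150 on the host's own strand (22.7%, 16.2% to 30.2%). The replicates gave 14 and 15 genes for the opposite strand, and 30 and 33 for the same strand. These intervals do not overlap, but the split was made after the data were seen and has no test. Opposite-strand genes cannot be cut from the host's transcript, which runs the other way.

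The opposite-strand sites had a median signal of 202 in the pooled list, against 204 at same-strand hosted genes and 249 at unhosted genes. Y48A6C.10 (chromosome III, 11118361 to 11118484, plus strand), inside sup-35, had 551 in the pooled list, 241 in replicate 1 and 278 in replicate 2. Across the 15 genes the pooled signal ran from 110 at R08C7.19 to 975 at Y55F3BR.9. None of the 15 summits lay in the promoter window of a protein-coding gene (1000 bp upstream to 200 bp downstream of a 5′ end).

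Same-strand hosted genes with the highest signal were F54F11.6, C16D9.11, Y37E3.20 and W04D2.7. C16D9.11 (chromosome V, 8228900 to 8228969, minus strand), in an intron of rol-3, had 573 in the pooled list, 302 in replicate 1 and 267 in replicate 2. Y37E3.20, in an intron of pcyt-2.1, had 542 in the pooled list, 290 in replicate 1 and 251 in replicate 2. W04D2.7, in an intron of the innexin (gap junction) gene inx-11, had 459 in the pooled list, 236 in replicate 1 and 236 in replicate 2. All 4 hold the upstream element 58 or 59 bases before the gene. Of the 49 hosted bound genes on either strand, 43 had a strongest summit outside every protein-coding promoter window. Among the 34 bound same-strand hosted genes, 6 had it inside such a window. A place outside these windows does not by itself assign a summit to the snoRNA gene.

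**Figure D3:**
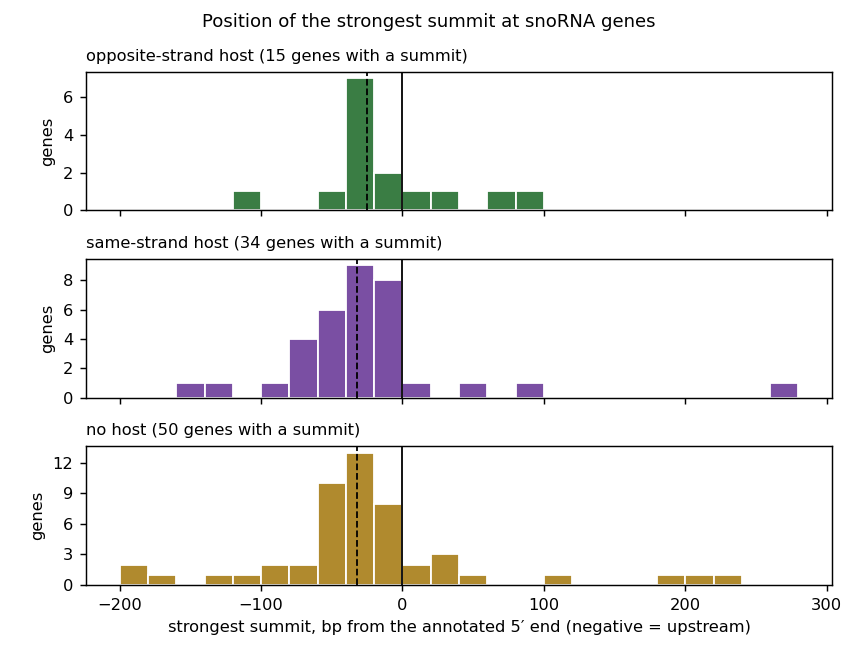
Number of bound snoRNA genes by distance of the strongest summit from the annotated 5′ end, in bins of 20 bp, for opposite-strand hosts, same-strand hosts and no host. Solid lines mark the 5′ end and dashed lines the medians (−25, −32 and −32 bp), which lie just upstream in all 3 classes.

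Some host groups held few or no bound genes in the main list. Of the 19 snoRNA genes in introns of genes named rps or rpl, which encode ribosomal proteins, 0 had a main-list summit. The interval reaches up to 17.6% and so covers the 6.48% of all annotated genes. The replicate lists called 1 of the 19 in replicate 1 and 3 in replicate 2, and these were 4 different genes. C16A3.11 in rps-13 had 14.3 in replicate 1, and B0041.9 in rpl-4, F53G12.12 in rpl-7 and Y24D9A.10 in rpl-7A had 63.9, 56.2 and 31.0 in replicate 2. H06I04.9 lies in ubl-1, a gene outside these names that encodes a fusion of a ubiquitin-like and a ribosomal protein, and had a main-list summit of 20.1 with none in either replicate list. The 4 genes in nol-56, which encodes a box C/D scaffold protein, had no summit in the main list or in either replicate list. With so few genes the interval reaches up to 60.2%. Of the 38 snoRNA genes that share a host with another, 2 were bound in the main list, 1 in replicate 1 and 3 in replicate 2. The main-list share was 5.26% (interval 0.644% to 17.8%), near the 6.48% of all annotated genes. These host groups and genes were picked out after the data were seen. Of the 19 in rps or rpl hosts, 14 (73.7%) had a candidate peak in the authors' pooled ranked list, which holds peaks before the threshold. Such a candidate was present at 66.8% of all snoRNA genes and 43.1% of all annotated genes.

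Among the unhosted genes, 44 overlapped a protein-coding gene in another way (an exon or a partial overlap), and 5 of them (interval 3.79% to 24.6%) were bound. Of the 124 clear of protein-coding genes, 45 (36.3%, 27.9% to 45.4%) were bound. At 21 of the 50 unhosted bound genes the strongest summit also lay in a promoter window of a protein-coding gene, and which gene the site belongs to cannot be told apart. Over all host classes this held for 27 of the 99 bound genes. At the other 72 genes the strongest summit was upstream in 57, with a median position of −28 bp.

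All chromosomes held bound snoRNA genes. The counts were 18 of 74 genes on I, 21 of 71 on II, 10 of 54 on III, 26 of 59 on IV, 21 of 55 on V and 3 of 33 on X. The share was 44.1% on IV (interval 31.2% to 57.6%), against 2.74% of all annotated genes of IV, which include many piRNA genes. On X it was 9.09% (1.92% to 24.3%), close to the 7.64% of all annotated genes of X. The shares over all annotated genes were 12.7% on I, 8.91% on II, 14.4% on III and 6.12% on V. On X the replicate lists called 4 snoRNA genes in replicate 1 and 3 in replicate 2. The 3 genes on X were C53B7.8 with 259 in the pooled list (173 in replicate 1 and 95.7 in replicate 2), T21F2.3 with 158 (94.0 and 74.2 in replicates 1 and 2) and Y73B3A.30 with 137 (90.1 and 55.7 in replicates 1 and 2). No order of the chromosomes was tested.

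The upstream element was a shared feature of the bound genes that the choice of members did not use. Its letters were read from the windows of bound genes, so its frequency among them is a description. It was searched on the strand of the gene from 150 bases before to 25 bases inside the 5′ end. It was found at 31 of 99 bound genes (31.3%, interval 22.4% to 41.4%) and at 4 of 247 unbound genes (1.62%, 0.443% to 4.09%). Over all 46890 annotated genes 135 windows of this length held it (0.288%), 30 of them at the 129 snRNA genes. The opposite strand of the same window held it at 1 bound and 1 unbound snoRNA gene.

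Its place was narrow. In the bound genes the first base of the element lay at a median of −59 (quartiles −63.5 and −58, range −80 to −54). The summit lay a median of 31 bp past the centre of the element, towards the gene. All 31 genes had a summit in both replicate lists. Their pooled signal had a median of 389 (quartiles 201 and 547, range 132 to 1268), so each was above the median of the whole list. The element was present at 11 of 34 bound genes with a same-strand host, 6 of 15 with an opposite-strand host and 14 of 50 with no host.

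The second feature was box B, the downstream internal control box of polymerase III genes. Spelled GTTCNANNC, a looser form chosen after the data were seen, it was found at 28 of 99 bound genes (28.3%, interval 19.7% to 38.2%) and 13 of 247 unbound genes (5.26%, 2.83% to 8.83%), against 2.74% of windows over all genes. The stricter GTTCGANNC was found at 17 bound and 3 unbound genes, and at 0.525% of all windows. The first base of the looser box lay at a median of −14, which puts it between the element's usual place and the annotated 5′ end. The summit lay a median of −21.5 bp from its centre, on the side away from the gene. No gene held both the upstream element and box B.

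Box A, the upstream internal control box, was found at 11 bound and 3 unbound genes and at 0.35% of all windows. Its first base lay at a median of −58. In 7 of the 11 bound genes box B followed it, with a median spacing of 44 bases between first bases, as in Y43F8C.22 above. These boxes lie before the annotated 5′ ends: within the annotated genes box A was found in none of the 346 and the stricter box B in 1 bound and 8 unbound genes.

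**Figure D4:**
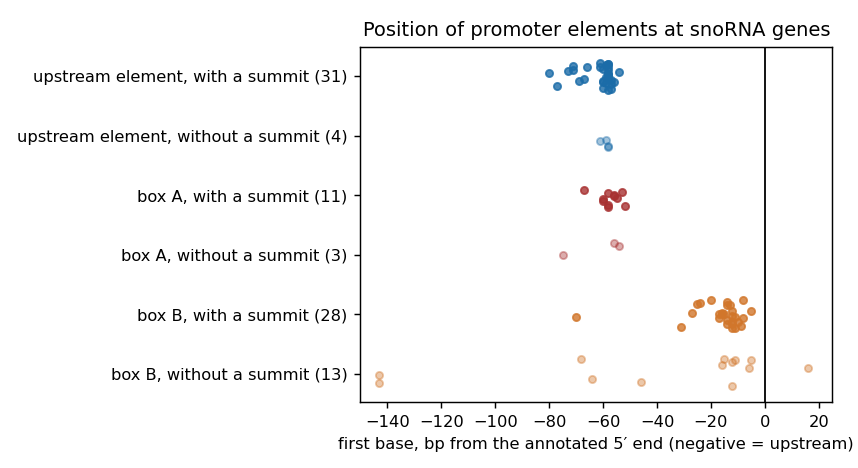
First base of the upstream element, box A and box B relative to the annotated 5′ end of snoRNA genes, with a summit (dark, upper row of each pair) and without (pale, lower row); vertical scatter only separates points. The upstream element and box A lie near −59 and −58 and box B near −14 in bound genes, and the 13 unbound genes with box B are more scattered.

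Median signal at genes with box B lay between that of genes with the upstream element and that of the rest. The median pooled signal was 249 for the 28 bound genes with box B (quartiles 165 and 291), against 176 for the 40 bound genes with neither feature (quartiles 121 and 245). In replicate 1 the medians were 218, 139 and 113 for genes with the element, box B and neither, and in replicate 2 they were 169, 107 and 79.9 in the same order. The order of medians was the same in both replicates. The ranges overlapped, with pooled signals of 132 to 1268, 89.0 to 583 and 12.6 to 597 in the same order, and no difference was tested. Box B genes included Y23H5B.10 at 583 (336 in replicate 1 and 236 in replicate 2) and C53B7.8 at 259.

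**Figure D5:**
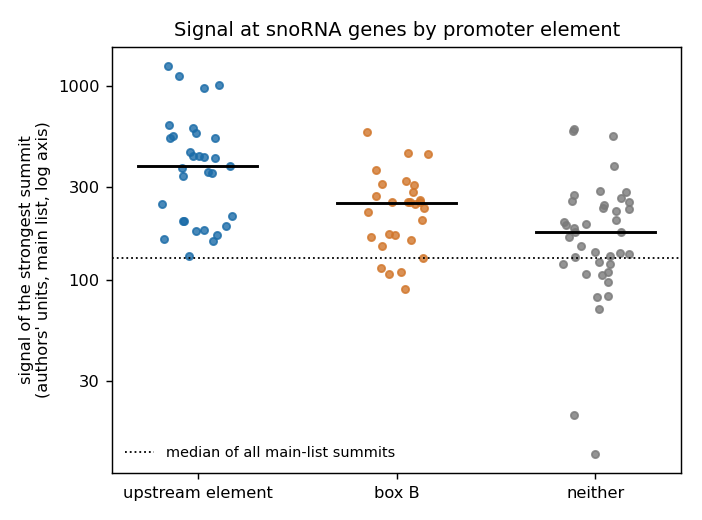
Pooled-list signal of the strongest summit at each bound snoRNA gene, in the authors' units on a log axis, by promoter feature, with medians as horizontal lines (389, 249 and 176). All 31 genes with the upstream element lie above the dotted line, the median of all main-list summits (130).

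Read the other way, 31 of 35 snoRNA genes with the upstream element were bound (88.6%, interval 73.3% to 96.8%), and 28 of 41 with box B (68.3%, 51.9% to 81.9%). Because the element's letters came from bound genes and the looser box B was also chosen with the data in view, these shares were favoured by the choice. Their intervals do not cover it. Of the 270 genes with neither, 40 were bound (14.8%, 10.8% to 19.6%). In replicate lists 1 and 2 alike, 32 of the 35 genes with the element had a summit.

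A run of TTTT, the signal at which polymerase III stops, was present in the 20 bases after the 3′ end of 66 of 99 bound genes (66.7%, interval 56.5% to 75.8%) and 79 of 247 unbound genes (32.0%, 26.2% to 38.2%), against 35.7% of all genes. It followed 26 of the 28 bound genes with box B, 18 of the 31 with the upstream element and 22 of the 40 with neither. TATAAA in the 100 bases before the gene was found at 4 bound and 18 unbound snoRNA genes, and at 10.9% of all genes.

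In 100-bp windows at the summits, searched on both strands, the element was present at 25 of 102 snoRNA summits and at 35 of the 2675 other summits. The stricter box B was at 15 of 102 and at 283 of 2675, and box A at 10 of 102 and at 72 of 2675. The element was thus at 24.5% of snoRNA summits and 1.31% of all other summits, and the stricter box B at 14.7% and 10.6%. Its letters were read from bound snoRNA genes, so the element's contrast was favoured by that choice. The other summits were not split by gene class, so a share at snRNA summits is not given. In the gene windows the element was at 23.3% of the 129 snRNA genes and 10.1% of all 346 snoRNA genes.

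The 4 unbound genes with the element were examined in the authors' ranked list, and all 4 had a candidate in the pooled ranked list. WBGene00220185 had a pooled candidate with a signal of 293 and a −log10 IDR of 5, with ranked signals of 134 in replicate 1 and 185 in replicate 2. IDR, the irreproducible discovery rate, measures how well the replicates rank a peak alike, and larger values of −log10 IDR mean better agreement. This candidate was 38 bp before the gene yet is not in the thresholded list, which the authors made with a further file whose content is not stated. K02F6.11, W07G1.23 and C02C6.13 had pooled candidates of 65.7, 61.5 and 34.0, each with −log10 IDR under 2; these 3 were named after their values were seen. W07G1.23 did have a summit in both replicate lists, of 28.4 at −32 bp in replicate 1 and 38.0 at −37 bp in replicate 2.

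Of all members, 231 of 346 (66.8%) had a candidate in the pooled ranked list, against 43.1% of all genes. Of the 247 unbound genes 132 had one, with a median signal of 33.8, and 57 had one in both replicates' ranked lists. The candidates at unbound genes were not placed like the summits. They had a median position of 42 bp after the 5′ end, 55 of 132 (41.7%) were upstream, and 22 lay in the 60 bases before the gene. Behind WBGene00220185 the strongest were B0041.9, in an intron of rpl-4, with 86.2 in the pooled list and 28.4 and 63.9 in replicates 1 and 2. F53G12.12, in an intron of rpl-7, had 81.6 (25.6 in replicate 1 and 56.2 in replicate 2). F25H2.14, in an intron of tct-1, had 78.9 (36.1 in replicate 1 and 45.3 in replicate 2). The values of these genes are from the ranked lists. In the thresholded list of replicate 2, the strongest summit of F25H2.14 had 18.9, 282 bp after the 5′ end.

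The guide class of most snoRNA genes could not be read from the annotated sequence by a simple rule. Genes with TGATGA in the first 25 bases and CTGA in the last 25 were called C/D-like, and genes with ACA 3 bases before the 3′ end (2 to 4 allowed) H/ACA-like. The rule placed 15 genes in C/D-like and 75 in H/ACA-like, and left 256 in neither. In these classes 9 of 15 (60.0%, interval 32.3% to 83.7%), 19 of 75 (25.3%, 16% to 36.7%) and 71 of 256 (27.7%, 22.3% to 33.6%) were bound. Each replicate list also had 9 C/D-like genes, and 15 and 17 H/ACA-like genes in replicates 1 and 2. The bound H/ACA-like count depended on the settings: it was 29 when the boxes were searched with 10 bp added at each end of the gene, and 12 with only the summits at or above the median signal. Of the 9 bound C/D-like genes 5 hold the upstream element and 4 box B, and of the 19 bound H/ACA-like genes none holds the element and 7 hold box B.

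Near-identical copies make some positions uncertain, since reads from such genes may be placed at the wrong copy. No 2 snoRNA genes had identical annotated sequences, but 18 were at least 90% identical to another, and 14 of these were bound, 10 with the upstream element. They include F59C6.15, F25H2.15, Y67A10A.14, T19C4.11 and F43A11.8, Y53F4B.47 with C05H8.3, T26A8.6 with T08B6.64, and C53B7.8 with C46C2.8. Without any of the 14, the 85 other bound genes had the same median position to within 1 bp (−28 bp), and 21 held the element.

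The genes for the proteins that work with snoRNAs were looked at by a list of 44 names, 43 of which matched the annotation. Of these 23 had a summit in the promoter window, a share of 53.5% (interval 37.6% to 68.8%), against 9.79% of all protein-coding genes. The names were listed with earlier results of these data known, and the interval does not cover that choice. A summit in this window can also lie near another gene, and which gene it belongs to was not determined. In the replicate lists 21 and 15 of the 43 had a promoter summit (mean 18 ± 4.24, SD, n = 2). Their count was thus less even between the replicates than that of the snoRNA genes. The replicate 2 list was also shorter, with 1811 peaks against 2464 in replicate 1, and the cause of the lower count was not tested.

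All 8 genes for core proteins of the snoRNA particles had a promoter summit in the main list and in replicate 1, and 6 had one in replicate 2. Among the box C/D proteins fib-1, the fibrillarin methyltransferase, had 354 in the pooled list (261 in replicate 1 and 90.1 in replicate 2). The scaffold proteins nol-58 and nol-56 had 214 and 126, and snu-13, which binds the RNA's kink-turn, had 83.2 with no summit in the replicate 2 list. Among the box H/ACA proteins dkc-1, the dyskerin pseudouridine synthase, had 396 (223 in replicate 1 and 177 in replicate 2). The smaller H/ACA subunits Y48A6B.3, garr-1 and nola-3 had 247, 184 and 124, and nola-3 had none in the replicate 2 list. Their summits lay between 85 bp (fib-1) and 629 bp (nola-3) before the 5′ end, within a window that reaches farther than the 200 bp used at the snoRNA genes.

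Of the 4 assembly and cap genes 3 had a promoter summit in the main list, 2 in replicate 1 and 1 in replicate 2. The ATPase genes of particle assembly ruvb-1 and ruvb-2 had 97.2 and 123 in the main list, and ruvb-2 had none in replicate 2. The nucleolar phosphoprotein gene dao-5 had 83.8 in the main list and none in either replicate list. Of 16 nucleolar and ribosome biogenesis genes 6 were bound in the main list, 5 in replicate 1 and 4 in replicate 2, with nol-10 at 348, nol-6 at 179, rbd-1 at 119, lpd-7 at 105, pro-1 at 98.4 and nol-14, in neither replicate list, at 74.1. Of 15 genes for polymerases and their factors 6 were bound in the main list, 6 in replicate 1 and 4 in replicate 2. Among them snpc-3.4, a subunit gene of the SNAP complex that starts snRNA transcription, had 538 (356 in replicate 1 and 185 in replicate 2). The other bound genes were rpoa-2 at 246 and rpoa-1 at 106, which encode large subunits of RNA polymerase I, and snpc-3.1, snpc-3.2 and snpc-1.2 at 193, 126 and 113. The rest of this group had no promoter summit in the main list or in either replicate list. They were rpc-1, rpc-2, tftc-1, tftc-3, tftc-5, tbp-1, snpc-1.1, snpc-1.3 and snpc-4, named here to complete the group.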

How the data were processed

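Anti-GFP ChIP-seq peaks of 1 group with 2 biological replicates were used. Per the labels, reads were placed on build ce11; neither the aligner nor the peak caller is given in the sources used here. The deposited lists give the authors' signal per peak, and ranked lists also −log10 of the global IDR as deposited by the authors. Lists were used as deposited; no read counts exist in them, so depth is unknown. The main list was the pooled conservative thresholded list, and the thresholded list of each replicate gave the per-replicate values. Genes came from Ensembl release 115 of WBcel235. Summits were assigned to any gene within 200 bp, so 1 summit can serve several genes. Near-identical copies were found with edlib 1.3.9. Shares have exact intervals (SciPy 1.17.1); positions and motifs were computed in Python 3.11.15 and the procedures were tested on simulated data. No test between groups exists, so none was run. Members, lists, motifs and alternatives were chosen with earlier results of these data known; the upstream element, the looser box B and the split by host strand were chosen after the data were seen. Named genes were the 12 strongest members, the 6 strongest hosted and 6 strongest unhosted, the 3 strongest on X, the 3 nearest on each side of 200 bp, the 4 strongest unbound candidates and every listed protein gene with a summit; other names are given as such or belong to families. The listed name gar-1 was matched by its sequence name, since that symbol belongs to another gene.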

Additional observations from a re-analysis of the deposited data

How the results depend on the processing

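Counts, shares and medians were recomputed with the other pooled list, each replicate's list alone, summits at or above the median signal only, windows of 100 and 500 bp, whole-peak overlap, other host rules, and without summits at tRNA, snRNA or rRNA genes or in protein-coding promoters. Of these values 119 were labelled close to the main one and 12 moved. For counts the label was wide: a count within a factor of 1.5 of the main one was called close. The 72 snoRNA genes bound without summits in protein-coding promoters, against 99, were so labelled. So were the 34 hosted genes with same-strand hosts only, against 49. No paired analysis was possible because there is 1 group. Leaving out a replicate gave a share of upstream summits of 75 (replicate 2 list alone) to 82.4%, 15 to 21 protein genes with a promoter summit, and a median signal of 99.3 to 129, which is on the scale of each list; the cause of the first pair was not tested. With the stronger summits only, by construction fewer, the count over all annotated genes was 1769, H/ACA-like genes 12, protein genes 10 and the median signal 252. Without summits at tRNA, snRNA or rRNA genes 1982 annotated genes were called, against 3038. That setting removed summits, so genes of other classes that had only such summits also dropped out. Without summits in protein-coding promoters 29 unhosted snoRNA genes were bound. With 10 bp added at each end of the gene, 29 bound genes were H/ACA-like. The stricter box B gave 17 bound genes. The lists carry no depth, so a snoRNA gene without a summit is not shown to be unbound.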
